A study of Mus musculus with 4 samples.

Results

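Homologous recombination, Fanconi, mismatch repair and replication checkpoint genes were read in RNA sequencing of mouse embryonic brain. The set holds 39 genes, listed by name for their known roles. Each of the 39 symbols matched 1 row among the 20421 genes of the deposited table. The genotype of interest was FOXM1f/+;Nestin-Cre, an allele of the transcription factor FOXM1 combined with the Cre recombinase driver Nestin-Cre, which is active in neural progenitors. It was set against WT, and all samples were C57BL/6 brains at embryonic day 15. How the FOXM1 allele was built is not stated in the labels, and the titles of the WT samples name nestin for 1 sample and foxm1 for the other, so the WT group may carry either allele alone. The labels list 2 samples per genotype and the design text speaks of triplicates, whereas the table has 1 count column per genotype. A column may stand for a single embryo or for pooled ones. Below, the FOXM1f/+;Nestin-Cre column is the transgenic library and the other column the WT library. With 1 library per genotype there is no spread between animals to test against. Every interval is an exact 95% interval that covers counting error only.

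Homologous recombination repairs broken chromosomes by copying the sister chromatid. Broken ends are trimmed to single strands, BRCA1, PALB2 and BRCA2 build a protein filament on them, and the BCDX2 and CX3 complexes and the RAD54 translocases help the filament find and invade its template. The Fanconi proteins detect crosslinks between DNA strands and mark the FANCD2 and FANCI pair for their removal. ATR, with ATRIP, TOPBP1 and claspin, senses stalled replication forks and activates the kinase CHK1, while ATM senses broken ends and activates CHK2. Most of these proteins act in S and G2 phase, and cycling neural progenitors of the embryonic brain depend on them.

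Promoters that hold a shared short word are shown first, from genes at least 1.2-fold higher in the transgenic library and from genes that were not. Rad54l and Eme1 were also at least 1.2-fold higher, but their windows held no such word and are not shown. The RefSeq table of promoters (build GRCm38.p6) held windows from 250 bases before to 50 after the start site for 32 of the 39 genes. Of 35 windows listed for them, the first of each gene was used. Some windows, such as those of Chek1 and Fanci, lie wholly inside the annotated gene, so the words found depend on the start site listed. Exo1, Fancd2, Nbn, Rad50, Rad51d, Rad54b and Xrcc2 had no window. Stretches of 100 bases in gene direction follow, in which capitals mark E2F-type words, the kind of sequence bound by the E2F factors of the G1/S transition. The words searched on both strands were TTCCCGC, its variant TTGGCGC, its variant TTCGCGC and lastly the variant TTGCCGC. The word of Chek1 lies 43 to 49 bases after the start site, past the last base allowed in a stretch, and is not shown. The word of Fanci, which is shown, lies 18 to 24 bases after the start site. Brip1 lies on the minus strand at chr11:86201169-86201268, Chek2 on the plus strand at chr5:110839784-110839883 and Brca2 on the plus strand at chr5:150522406-150522505. Topbp1 lies on the plus strand at chr9:103305149-103305248 and Blm on the minus strand at chr7:80535088-80535187. Such words stood in 17.3% of the windows of all genes compared below. Fanci and Fancm carry such words as well but had ratios below 1. They lie on the plus strand at chr7:79392263-79392362 and chr12:65075475-65075574.
Brip1: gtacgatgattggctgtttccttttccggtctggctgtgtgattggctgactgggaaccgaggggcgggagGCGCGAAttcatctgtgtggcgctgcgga
Chek2: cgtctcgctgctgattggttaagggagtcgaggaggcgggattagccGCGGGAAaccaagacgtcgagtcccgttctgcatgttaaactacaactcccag
Brca2: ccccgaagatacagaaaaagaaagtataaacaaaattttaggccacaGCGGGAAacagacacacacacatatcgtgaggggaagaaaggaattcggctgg
Topbp1: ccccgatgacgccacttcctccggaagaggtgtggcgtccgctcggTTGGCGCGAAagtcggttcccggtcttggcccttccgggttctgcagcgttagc
Blm: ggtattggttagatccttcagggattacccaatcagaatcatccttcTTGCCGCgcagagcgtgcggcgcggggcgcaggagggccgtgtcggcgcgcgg
Fanci: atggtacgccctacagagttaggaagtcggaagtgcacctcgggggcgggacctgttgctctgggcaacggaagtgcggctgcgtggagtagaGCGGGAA
Fancm: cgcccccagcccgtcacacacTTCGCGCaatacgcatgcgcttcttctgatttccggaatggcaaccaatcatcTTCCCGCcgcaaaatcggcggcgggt

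The state of the libraries is given in brief. They held 17856653 reads (transgenic) and 17543705 reads (WT). Mouse Foxm1 had 1289 reads in the transgenic library against 1139 in WT, a ratio of 1.11 (1.03 to 1.21). All 9 radial glia markers and all 13 neuronal markers listed were detected in both libraries. The libraries differed in sex content, since Xist had 9628 reads in the transgenic library against 5 in WT while 4 Y-linked genes had 0 reads in the transgenic library against 202 to 1266 in WT. Of the 39 genes, Fancb alone is X-linked. Choroid plexus markers summed to 24.7 CPM in the transgenic library against 707 CPM in WT (6 of 8 compared), and erythroid markers to 1185 (transgenic) and 738 (WT) CPM (10 of 11 compared). The erythroid markers were uneven, with 6 intervals above 1 and 4 spanning it. Their log2 ratios, transgenic over WT, ran from -0.12 for Alas2 to 2.65 for Hbb-y. CPM are read counts scaled to a common library total.

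The 39 genes leaned towards higher levels in the transgenic library. A ratio above 1 was found for 29 of them, against 48.4% of the 14557 genes compared. Genes were compared where their mean over the libraries reached 1 CPM, as all 39 did. Their median log2 ratio, FOXM1f/+;Nestin-Cre over WT, was 0.19, beside -0.01 over all genes compared. At least 1.2-fold higher were 10 of the 39 (25.6%), where 11.5% of all genes compared were, and at least 1.2-fold lower were 2 of the 39 (5.13%), where 15.7% were. The interval lay wholly above 1 for 12 of the 39 (30.8%) against 16.5% of all genes compared, and wholly below 1 for 1 of the 39 (2.56%) against 19.2%. A ratio of at least 1.5-fold higher was seen for 3 of the 39 (7.69%) and 2.53% of all genes compared. These 3, Brip1, Chek2 and Rad54l, were also the members marked as significant and up in the authors' deposited table. That mark was carried by 3.14% of the genes in that table. It rests on the same counts, and no member below 1.5-fold carried it, so the match is not separate support. Together the genes took 815 CPM in the transgenic library against 719 CPM in WT. Their median was 275 reads in the transgenic library against 213 in WT, fewer than the medians of 479 (transgenic) and 474 (WT) over all genes compared.

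**Figure D1:**
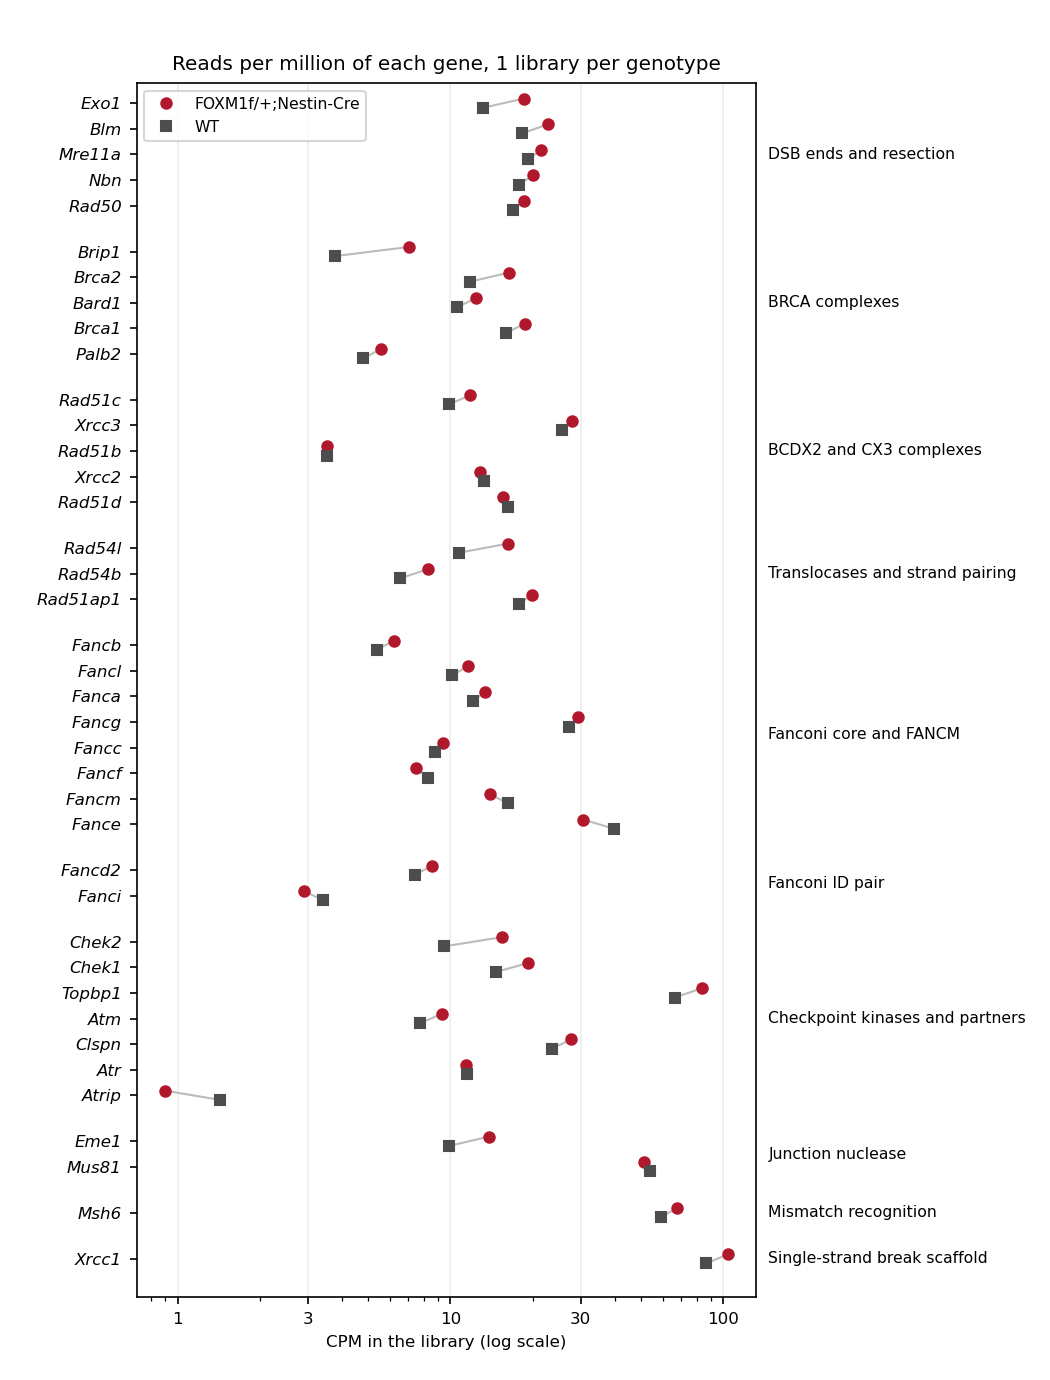
Level of each of the 39 genes in the FOXM1f/+;Nestin-Cre library (circles) and the WT library (squares), in CPM on a log scale, with genes grouped by role (DSB, broken DNA ends with both strands cut). Most circles lie right of their squares, with the widest gap upward at Brip1 (7.06 CPM in FOXM1f/+;Nestin-Cre, 3.76 CPM in WT).

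Levels were compared between genes per kilobase of merged exons. On this scale Xrcc1, Msh6 and Mus81 had the highest levels in both libraries, in a different order. Xrcc1, whose product is the scaffold of repair at nicked single strands, had 17.8 CPM per kb in the transgenic library against 14.9 in WT. The mismatch recognition gene Msh6 had 15.5 (transgenic) and 13.6 (WT) CPM per kb. Mus81 had 14.3 (transgenic) and 15.1 (WT) CPM per kb and so stood highest in the WT library, where it differed little from Xrcc1. Fance had 9.61 (transgenic) and 12.5 (WT) CPM per kb. At the low end, Atrip had 0.125 CPM per kb in the transgenic library against 0.199 in WT, Atr 0.481 (transgenic) and 0.487 (WT), and Fanci 0.504 (transgenic) and 0.592 (WT). Brca1 and Bard1, whose proteins form a ubiquitin ligase heterodimer, had nearly the same level, a mean over the libraries of 2.04 CPM per kb for Brca1 and 2.03 for Bard1. Merged exons of all transcripts overstate the length of genes with many annotated isoforms, such as Atr with 23629 bases, and so understate their level.

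Among the genes that sense and trim broken ends, Exo1 and Blm were higher in the transgenic library beyond counting error. The 3 genes of the MRN complex had ratios above 1, each with an interval that spanned 1. An interval for the complex as a whole was not computed. Exo1, the exonuclease of long-range trimming, had 331 reads in the transgenic library against 230 in WT, a ratio of 1.41 (1.19 to 1.68). Blm, the Bloom syndrome helicase, had 407 transgenic and 321 WT reads, a ratio of 1.25 (1.07 to 1.45). The 3 MRN genes were close to each other. Mre11a, the nuclease, had 385 transgenic and 337 WT reads, Rad50, its ATPase partner, 332 transgenic and 297 WT, and Nbn, the subunit that recruits ATM, 357 transgenic and 314 WT. Their ratios of 1.12, 1.10 and 1.12 had intervals that spanned 1.

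All 5 genes of the BRCA complexes had ratios above 1, and the intervals of Brip1 and Brca2 lay wholly above it. Brip1 encodes the helicase FANCJ, which binds the BRCT repeats of BRCA1. It lies on chromosome 11 from 86058138 to 86201193 (GRCm38, minus strand). It had 126 reads in the transgenic library against 66 in WT, or 7.06 CPM (transgenic) and 3.76 CPM (WT), and its ratio of 1.88 (1.38 to 2.57) was the highest of the 39. Brca2, which assembles the repair filament, had 293 transgenic and 207 WT reads, a ratio of 1.39 (1.16 to 1.67). Brca1 had 335 transgenic and 281 WT reads, a ratio of 1.17 whose interval just reached 1 (0.997 to 1.38). Bard1 had 222 transgenic and 185 WT reads (0.966 to 1.44 around 1.18), and Palb2, the link between BRCA1 and BRCA2, had 99 transgenic and 84 WT reads (0.857 to 1.57 around 1.16).

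The genes of the BCDX2 and CX3 complexes had ratios on both sides of 1. Their median log2 ratio was -0.00, and all 5 intervals spanned 1. Rad51b had 63 reads in the transgenic library against 62 in WT, Rad51d 279 transgenic and 284 WT, and Xrcc2, the partner of the Rad51d product in the BCDX2 complex, 229 transgenic and 232 WT. Xrcc3 had 497 transgenic and 451 WT reads and Rad51c, which is shared by both complexes, 211 transgenic and 173 WT, the highest log2 ratio of this group at 0.26 (-0.04 to 0.56). All 3 genes of the translocases and of strand pairing had ratios above 1. Rad54l, a translocase that acts on duplex DNA, had 291 reads in the transgenic library against 189 in WT, a ratio of 1.51 (1.26 to 1.83). It lies on chromosome 4 from 116094264 to 116123690 (GRCm38, minus strand), and 15.4% of its exon bases overlap Lrrc41 on the other strand, which had 533 transgenic and 571 WT reads. Its relative Rad54b had 148 transgenic and 115 WT reads, a ratio of 1.26 whose interval spanned 1 (0.984 to 1.63), and 35.9% of its exon bases are shared with other genes, nearly all with Fsbp. Rad51ap1, which stimulates strand pairing, had 355 transgenic and 314 WT reads (0.952 to 1.30 around 1.11).

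**Figure D2:**
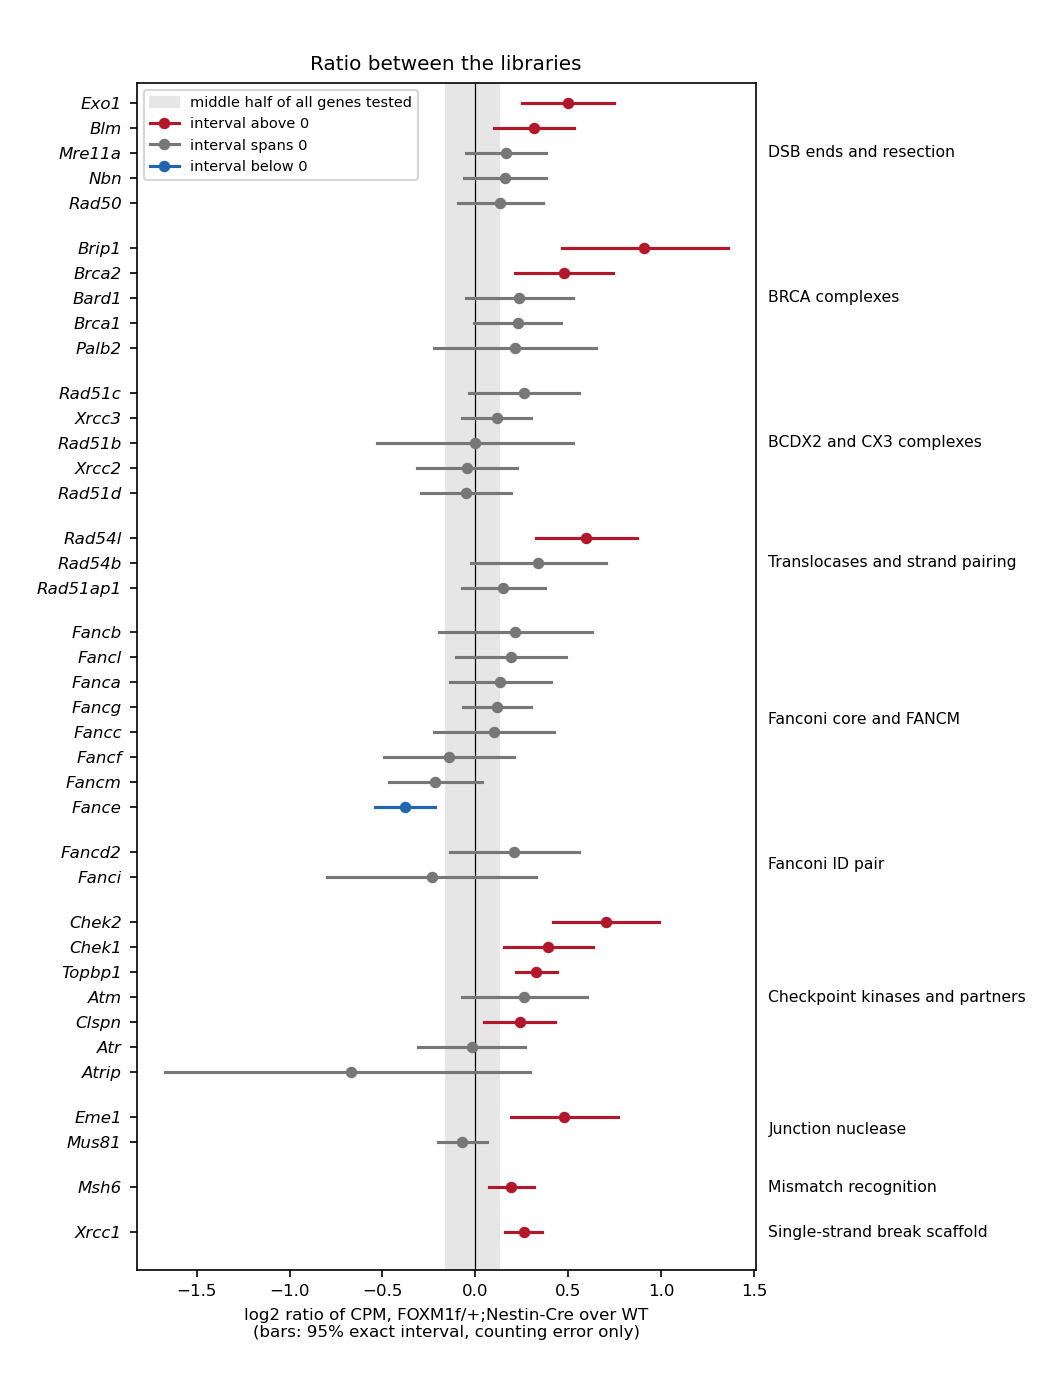
Log2 ratio of CPM, FOXM1f/+;Nestin-Cre over WT, for each gene with its 95% exact counting interval, grouped by role. The grey band is the middle 50% of all genes compared, -0.16 to 0.13. Intervals above 0 are found for 12 genes and below 0 for Fance alone.

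Among the Fanconi genes Fance was lower in the transgenic library, and no gene of the core was higher beyond counting error. The genes of the core complex and the translocase gene Fancm, 8 in all, had a median log2 ratio of 0.11. Their summed level was 122 CPM in the transgenic library against 128 CPM in WT, with an interval that spanned 1 (0.899 to 1.01). Fance, the core subunit that contacts FANCD2, had 548 reads in the transgenic library against 700 in WT, or 30.7 CPM (transgenic) and 39.9 CPM (WT). It was 1.30-fold lower (1.16 to 1.46), and it lies on chromosome 17 from 28313530 to 28326568 (GRCm38, plus strand). Of its direct partners, Fancf had 134 transgenic and 145 WT reads (ratio 0.908, 0.713 to 1.16) and Fancc 168 transgenic and 154 WT (1.07, 0.856 to 1.34). Fancm had 249 transgenic and 284 WT reads, a ratio of 0.861 (0.724 to 1.02). The remaining core genes had ratios between 1.08 and 1.16 with intervals that spanned 1. Fanca had 238 transgenic and 213 WT reads and Fancg, which binds FANCA, 526 transgenic and 477 WT. Fancl, the ubiquitin ligase of the complex, had 207 transgenic and 178 WT reads, and its partner Fancb 111 transgenic and 94 WT. Fanca, Fancc, Fancf, Fancl and Fanci each share at least 10% of their exon bases with a gene on the other strand. The substrates went in opposite directions within counting error. Fancd2 had 153 reads in the transgenic library against 130 in WT (1.16, 0.909 to 1.47), and Fanci had 52 transgenic and 60 WT (0.852, 0.576 to 1.26).

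In the checkpoint group the effector kinases and the ATR activator Topbp1 were higher in the transgenic library. The intervals of the sensor kinases Atm and Atr each spanned 1. Chek2, the effector of ATM, had 275 reads in the transgenic library against 166 in WT, or 15.4 CPM (transgenic) and 9.46 CPM (WT). Its ratio of 1.63 (1.34 to 1.99) was the next highest after Brip1, and it lies on chromosome 5 from 110839979 to 110874145 (GRCm38, plus strand). Chek1, the effector of ATR, had 345 transgenic and 258 WT reads, a ratio of 1.31 (1.11 to 1.55). Topbp1, which switches on ATR, had 1487 transgenic and 1163 WT reads and the narrowest interval among the genes at least 1.2-fold higher, 1.26 (1.16 to 1.36). Clspn, the claspin adaptor between ATR and CHK1, had 495 transgenic and 412 WT reads, a ratio of 1.18 (1.03 to 1.35). Atm had 166 reads in the transgenic library against 136 in WT (log2 ratio 0.26, -0.07 to 0.60), and Atr 203 transgenic and 202 WT (ratio 0.987, 0.809 to 1.21). Atrip, which carries ATR to coated single strands, had 16 transgenic and 25 WT reads. Its ratio of 0.629 was the lowest of the 39, but the interval ran from 0.314 to 1.23, and 16.0% of its exon bases are shared with Trex1.

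The last genes act on joint molecules, mismatches and nicks. Eme1, the regulatory subunit of the MUS81 nuclease, had 247 reads in the transgenic library against 174 in WT, a ratio of 1.39 (1.14 to 1.70). Mus81 itself had 914 transgenic and 943 WT reads, a ratio of 0.952 (0.869 to 1.04). Eme1 overlaps Lrrc59 on the other strand by 221 of its 2762 exon bases, and Lrrc59 had 3038 reads in the transgenic library against 2934 in WT. It also overlaps Mrpl27 on the other strand by 75 bases. Mrpl27 had 410 transgenic and 347 WT reads, a ratio of 1.16 (1.004 to 1.34). Msh6, which recognises base mismatches, had 1204 transgenic and 1034 WT reads, a ratio of 1.14 (1.05 to 1.24). Xrcc1 had 1856 transgenic and 1522 WT reads, a log2 ratio of 0.26 (0.16 to 0.36).

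Partners were then compared within each library, which needs no scaling. In 17 pairs, picked for known contacts or signalling steps after the values had been seen, the reads of the first gene per read of the second were set against each other. For 4 pairs the balance was tilted to the first gene in the transgenic library beyond counting error, for 1 it was tilted to the second, and 12 intervals spanned 1. Eme1 had 0.270 reads per Mus81 read in the transgenic library against 0.185 in WT, 1.46 times as many (1.18 to 1.83). Brip1 had 0.376 (transgenic) and 0.235 (WT) reads per Brca1 read, 1.60 times as many (1.13 to 2.28). Chek1 had 1.70 (transgenic) and 1.28 (WT) reads per Atr read, 1.33 times as many (1.02 to 1.73), and Topbp1 per Atr was 1.27 times as high (1.03 to 1.58). Fance had 3.26 reads per Fancc read in the transgenic library against 4.55 in WT, a ratio of 0.718 (0.557 to 0.924). Chek2 per Atm gave 1.36 with an interval that reached 1 (0.997 to 1.85). Bard1 per Brca1 gave 1.01 (0.777 to 1.30), Nbn per Mre11a 0.995 (0.802 to 1.24), Rad50 per Mre11a 0.978 (0.785 to 1.22) and Rad51d per Xrcc2 0.995 (0.772 to 1.28). The other pairs whose intervals spanned 1 had ratios between 0.637 for Atrip per Atr and 1.11 for Rad51c per Xrcc3.

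**Figure D3:**
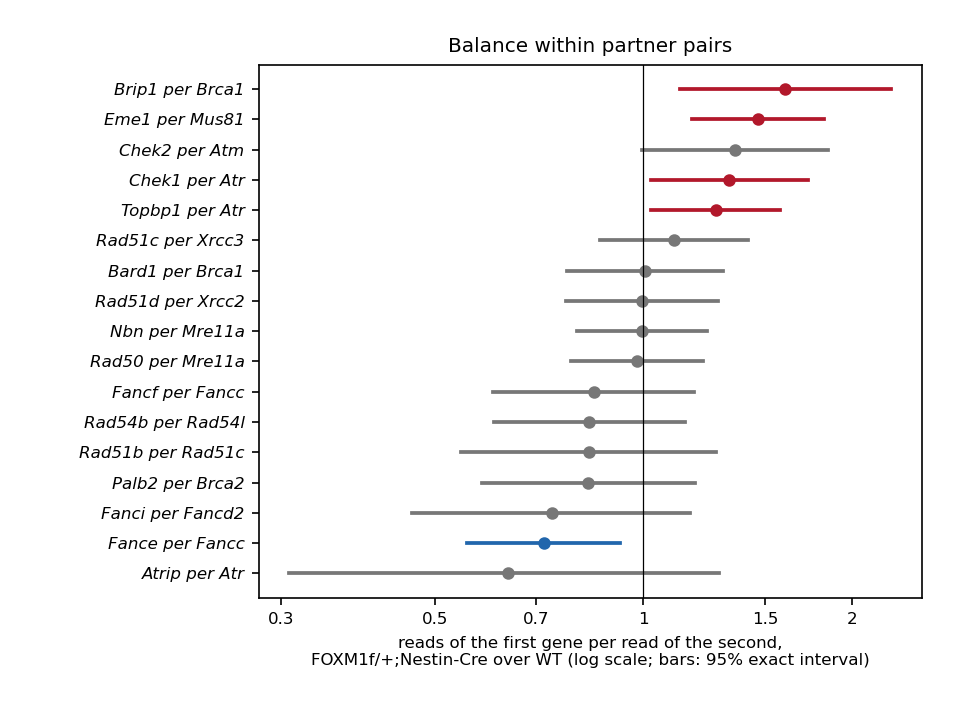
Reads of the first gene per read of its partner, FOXM1f/+;Nestin-Cre over WT, for 17 pairs on a log scale with 95% exact counting intervals. Brip1 per Brca1, Eme1 per Mus81, Chek1 per Atr and Topbp1 per Atr lie above 1, and Fance per Fancc lies below it.

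Genes of dividing cells were higher as well. Of 20 markers of cycling cells, 20 had intervals above 1. Their summed level was 2416 CPM in the transgenic library against 1958 CPM in WT, with a median log2 ratio of 0.30. Radial glia markers summed to 2243 (transgenic) and 1841 (WT) CPM (6 of 9 intervals above 1, 3 spanning 1), and markers of postmitotic neurons to 6871 (transgenic) and 7517 (WT) CPM (11 of 13 intervals below 1, 2 spanning 1). In whole tissue, more cells of a type cannot be told apart from more RNA per cell. The 39 genes were also set against the summed reads of the cycling markers, a scaling chosen after the data were seen. It divides every ratio by the same 1.23. The counts below are therefore the CPM ratios read at a shifted threshold, not separate support. On this scale 10 of the 39 genes had ratios above 1 (25.6%), against 9.03% of all genes compared. They were the same 10 that were at least 1.2-fold higher in CPM. Intervals lay above 1 for 3 of the 39 (7.69%) against 1.13% of all genes compared, and below 1 for 10 of the 39 (25.6%) against 67.8%. At least 1.2-fold higher were 3 of the 39 (7.69%) against 2.80% of all genes compared, and at least 1.2-fold lower were 10 of the 39 (25.6%) against 59.8%. Those 3 higher genes were also the 3 at least 1.5-fold higher in CPM. Brip1 was then 1.52 times as high (1.12 to 2.08), Chek2 1.32 times (1.08 to 1.61) and Rad54l 1.23 times (1.02 to 1.48). Intervals below 1 belonged to Fancg, Xrcc3, Atr, Xrcc2, Rad51d, Mus81, Fancf, Fancm, Fance and Atrip, with ratios between 0.510 and 0.878. The median log2 ratio of the 39 genes was -0.11 on this scale, where that of all genes compared was -0.31. The part of cell composition, sex content and blood in the differences was not tested.

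Other genes of the same pathways, none of them among the 39, were counted beside them. Of 65 such genes 64 were compared, 24 had intervals above 1 and 6 below it, and 18 were at least 1.2-fold higher against 1 at least 1.2-fold lower. Over all genes compared, 16.5% had intervals above 1 and 19.2% below it, 11.5% were at least 1.2-fold higher and 15.7% lower. The median log2 ratio of the 64 genes was 0.15, beside -0.01 over all genes compared. Other recombination genes had a median of 0.23, with 11 of 24 intervals above 1 and none below. Among them Dna2, a nuclease of long-range trimming beside EXO1, had 385 transgenic and 262 WT reads, a ratio of 1.44 (1.23 to 1.70). Other checkpoint genes had a median of 0.14, with 8 of 21 intervals above 1 and 1 below. Other Fanconi genes had a median of -0.09, with 3 of 13 above 1 and 5 below. Other mismatch repair genes had a median of 0.05, with 2 of 6 above 1 and none below.

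**Figure D4:**
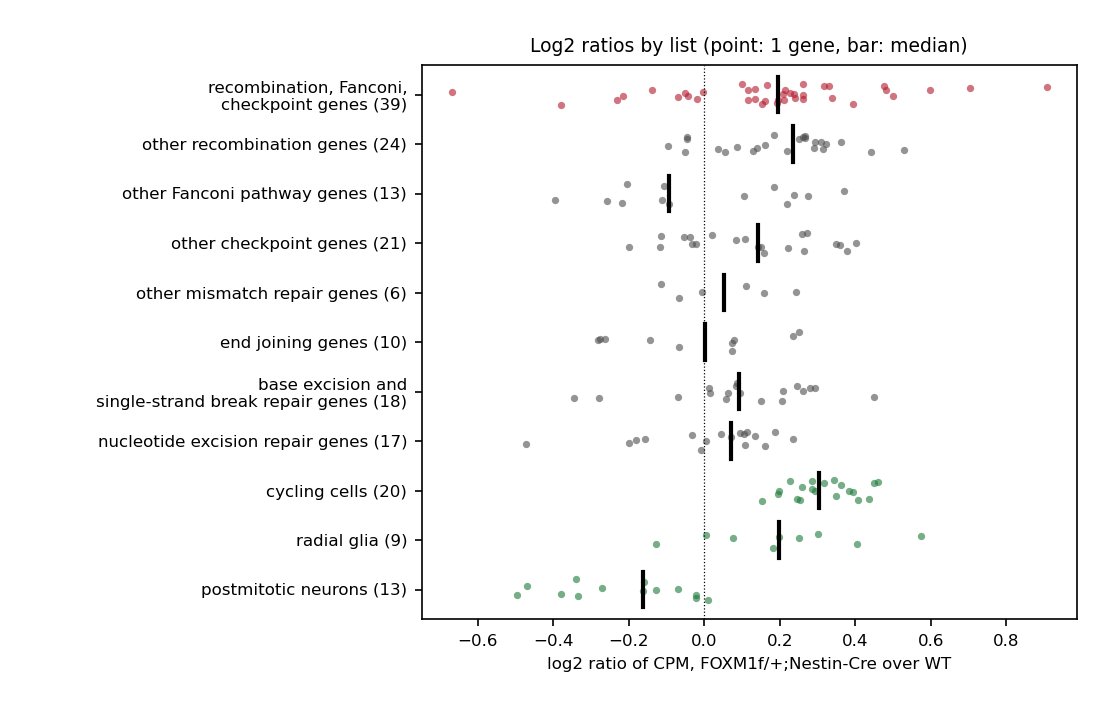
Log2 ratio of CPM, FOXM1f/+;Nestin-Cre over WT, for each compared gene (points) with the median of each list (bars) and the number of genes in brackets. The medians are 0.19 for the 39 genes, 0.23 for other recombination genes, -0.09 for other Fanconi genes, 0.30 for cycling cells and -0.16 for postmitotic neurons.

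E2F-type words were found in 18 of the 32 promoter windows of the set (56.2%), beside 17.3% of 10555 windows of genes compared. Members whose window held such a word had a median log2 ratio of 0.24, with 6 of 18 at least 1.2-fold higher. Those without had 0.12, with 2 of 14, where 11.5% of all genes compared were that much higher. The log2 ratios overlapped, from -0.23 to 0.91 with a word and from -0.67 to 0.60 without. The share of higher genes among all genes compared with such a word was not computed, so a link to the word was not tested. Brip1, Chek2, Brca2, Chek1, Topbp1 and Blm were the 6 higher ones with a word, and Rad54l and Eme1 the 2 without. Fanci, Fancf and Fancm held a word and had ratios below 1. In Topbp1 the word TTGGCGC and the variant TTCGCGC overlap on opposite strands and form the longer run in capitals above. The CCAAT word, read on both strands, stood in 21 windows (65.6%) beside 38.5% of all, and in Fancf it overlaps the E2F-type word. The words TTTGAA and, as a variant, TTCGAA, forms of the CHR element of late cell cycle genes, stood in 3 windows (9.38%), those of Eme1, Bard1 and Atr, beside 13.2% of all. A match describes the letters in the window and does not show that a factor binds there.

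**Figure D5:**
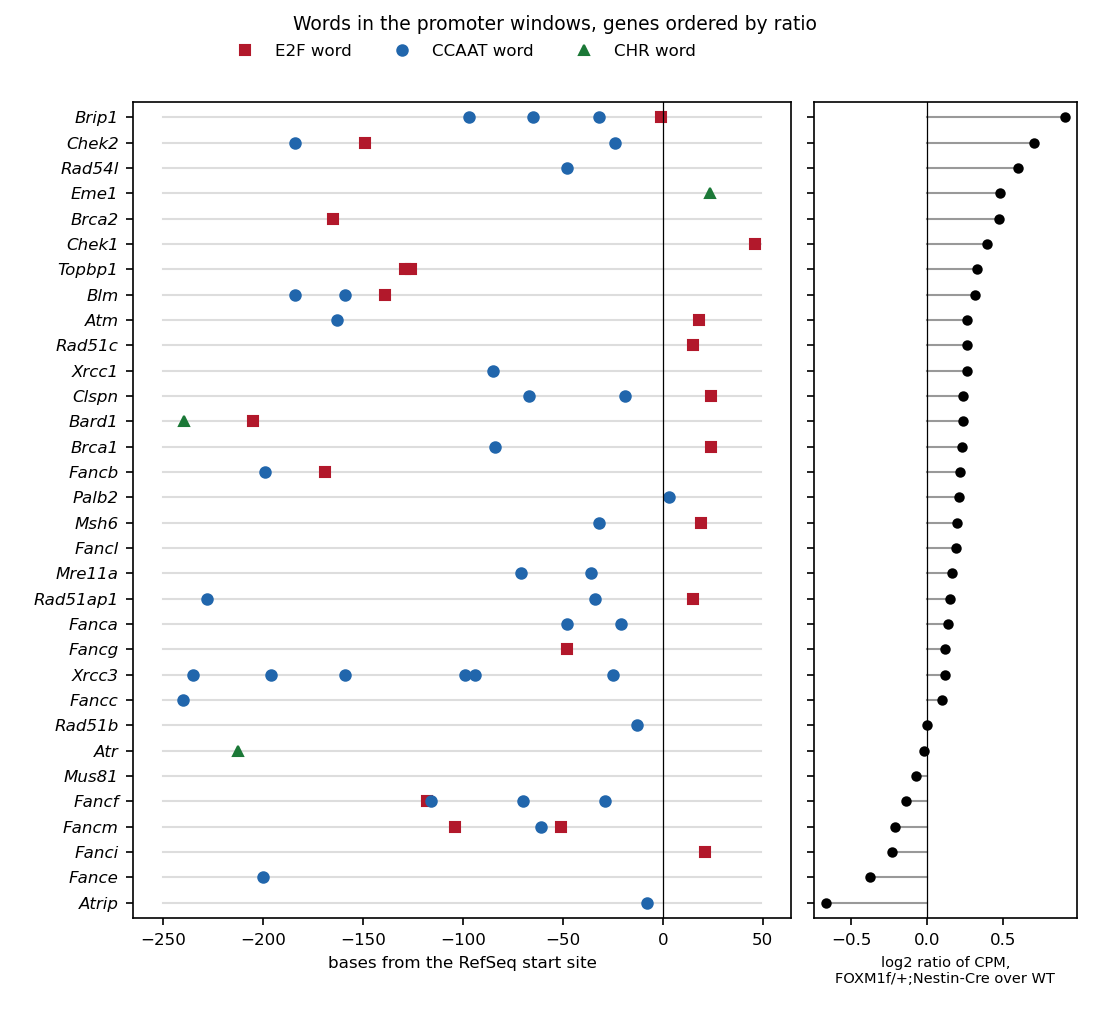
Position of E2F-type (squares), CCAAT (circles) and CHR (triangles) words in the promoter windows of 32 genes, in bases from the RefSeq start site, with genes ordered by log2 ratio of CPM, FOXM1f/+;Nestin-Cre over WT (right panel). Squares are found from Brip1 at the top, 0.91, down to Fanci at -0.23.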

How the data were processed

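Total RNA of mouse brain was taken with Trizol and 2 ug entered each library, per the labels' protocols. The submitters' processing notes name TopHat2 2.0.12, Bowtie2 2.2.3 and HTSeq 0.6.0, with mm9 as the build. The positions of 36 of the 39 genes equal those of GENCODE release M21 on GRCm38, so GRCm38 coordinates are given. Those of Atrip, Fance and Msh6 differ from that release in at least 1 end. The sources used here do not give the strand setting or how shared reads were treated. Of the 39 genes, 9 share at least 10% of their exon bases with another gene, and their values are less certain.

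The authors deposited raw read counts per gene and normalized values, which are CPM with a count of 0 entered as 0.5 reads, per the file headers and the values. The deposited fold change is a ratio of the CPM columns and log2 its logarithm, and the deposited p-values compare 1 column with 1 column by a test that no source used here names. Ratios and exact conditional (Clopper-Pearson) intervals for 2 Poisson rates were computed here from the counts and the authors' library totals, for genes whose mean CPM reached 1. Intervals of the partner comparison are exact conditional intervals of an odds ratio. No member had 0 reads. Reads are not independent molecules, and the intervals cover counting error only. No p-value was computed, since a column cannot be matched to a sample and there are no replicates. Every one of the 39 genes is named, with full values for those at least 1.2-fold different or at the ends of the order. The members, lists and words were chosen with earlier results of these data known. Some genes of the lists are not reported by name here. The intervals were tested on simulated Poisson counts, the model that they assume. Those counts held no spread between animals, so that test says nothing about it. Python 3.11.15 with NumPy 2.4.6, pandas 2.3.3, SciPy 1.17.1 and Matplotlib 3.10.9, and R 4.3.3 with edgeR 4.0.16 for TMM and RLE scaling factors, were used. Alternatives were those factors, other expression minimums, folds of 1.5 and 2, a 99% interval, totals without sex-linked, plexus and erythroid genes, a shorter promoter window and scaling by cycling markers.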

Additional observations from a re-analysis of the deposited data

How the results depend on the processing

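With TMM factors, RLE factors or totals without sex-linked, plexus and erythroid genes, all 39 log2 ratios stayed within their counting intervals and the median was 0.19 to 0.22. The number at least 1.2-fold higher was 13 with TMM and 15 with RLE factors, with Atm, Rad51c and Xrcc1 added by both and Clspn and Bard1 by RLE. These factors raised the ratio of every gene, and the median log2 ratio over all genes compared became 0.01 (TMM) and 0.02 (RLE). The share of all genes that were higher was not computed with these factors or with the minimum of 10 CPM. With a fold of 1.5 there were 3 genes higher and 1 lower, and with a fold of 2 there were 0 higher and 0 lower. Where the mean had to reach 10 CPM, 28 genes were compared, 8 were higher and 1 was lower, with 11 intervals above 1, since Brip1, Rad54b and Atrip fall under that minimum. Scaling by the reads of the cycling markers was an alternative chosen after the data were seen. With it the median log2 ratio was -0.11 beside -0.31 over all genes compared. At least 1.2-fold higher were 3 genes (7.69%) and lower 10 (25.6%), where 2.80% and 59.8% of all genes compared were. Intervals lay above 1 for 3 genes (7.69%) and below for 10 (25.6%), where 1.13% and 67.8% of all genes compared did. That scale lowers every log2 ratio by the same amount. On it 10 of the 39 genes (25.6%) lay above 0, where 9.03% of all genes compared did. The other 29 lay below 0, among them Clspn at -0.064, Msh6 at -0.11 and Xrcc1 at -0.042, whose intervals spanned 0. With a promoter window of 150 bases before the start, E2F-type words stood in 43.8% of member windows, beside 13.1% of windows of genes compared. No paired analysis was possible because the table has 1 column per genotype, and for that reason no replicate could be left out. The widest intervals were those of Atrip, Fanci, Rad51b, Brip1 and Palb2, each with fewer than 100 reads in at least 1 library.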

Other observations

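Repair routes outside the set had members on both sides of 1. Of 45 genes of end joining, base excision and nucleotide excision repair, 12 had intervals above 1 and 4 below it, with a median log2 ratio of 0.07. Over all genes compared, 16.5% of intervals lay above 1 and 19.2% below it. In base excision repair, Ung, which removes uracil from DNA, had 556 reads in the transgenic library against 400 in WT, a log2 ratio of 0.45 (0.26 to 0.64). Parp1, which senses nicks, had 4700 transgenic and 3772 WT reads, a ratio of 1.22 (1.17 to 1.28). In nucleotide excision repair, Xpa, a damage verification factor, had 325 reads in the transgenic library against 443 in WT, a ratio of 0.721 (0.623 to 0.834). Among end joining genes, Paxx had 817 transgenic and 972 WT reads, a ratio of 0.826 (0.752 to 0.907), and the Ku subunit gene Xrcc5 552 transgenic and 456 WT reads, a ratio of 1.19 (1.05 to 1.35). These genes were picked from their lists after the values had been seen.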
